A study of Homo sapiens with 16 samples.

Results

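Binding of the hypoxia-inducible factors (HIF) was examined at 8 genes of the oxygen-sensing pathway itself: EGLN1, EGLN2, EGLN3, HIF1AN, VHL, EPAS1, ARNT and HIF3A. The genes were chosen by name, and a peak was assigned to a gene when its centre lay within 50 kb of the start site of any of the gene's protein-coding transcripts. Of 23398 peaks in the lists, 38 met this rule, in 5 separate sites after overlapping peaks had been merged, and they lay near 4 of the 8 genes. Each of the 4 had a peak in both replicates of at least 1 group of libraries, as had 32.9% of all 19821 protein-coding genes. Each peak list came from one chromatin immunoprecipitation sequencing (ChIP-seq) library, which sequences the DNA pulled down with a bound protein and calls as peaks the stretches where its reads accumulate. The 16 libraries were from 4 human cancer cell lines, A549 (lung), HCT116 (colorectal), PC3 (prostate) and T47D (breast), all kept in 0.5% oxygen for 16 hours. Chromatin was precipitated with the antibody PM14 against HIF-1α or PM9 against HIF-2α, giving 8 groups of 2 replicates, numbered as in the labels. Normoxic libraries, input libraries, HIF-1β libraries and RNA-seq were not used here, so the values describe hypoxic cells and binding only, and each line stands for its tissue as a single cultured line.

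Oxygen is sensed in this pathway by enzymes that use it to modify HIF-α subunits. The prolyl hydroxylases EGLN1, EGLN2 and EGLN3 (also PHD2, PHD1 and PHD3) mark HIF-α for the VHL ubiquitin ligase and so for destruction, and the asparaginyl hydroxylase HIF1AN (also FIH) blocks the contact of HIF-α with coactivators. When oxygen is low HIF-α escapes both steps, pairs with ARNT (HIF-1β) and binds DNA at the core letters ACGTG or GCGTG, and induction of EGLN1 and EGLN3 by HIF is a known negative feedback of the pathway. EPAS1 encodes HIF-2α and HIF3A encodes a further α subunit.

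The stretches of DNA at the member sites are shown because they lie within the peaks described next. All are from the GRCh37 genome, written 5′ to 3′, with matches to ACGTG or GCGTG on either strand in capitals, so that CACGT and CACGC are matches on the strand opposite to the one printed. The EGLN1 sequence is the 300 bases before the start of its canonical transcript (chr1:231558034-231558333, minus strand). It does not hold the median EGLN1 peak centre, which lies 168 bp downstream of that start. The EGLN3 sequence is the 300 bases around the median peak centre (chr14:34407593-34407892, minus strand), as is that of the distal HIF1AN site (chr10:102322015-102322314, plus strand). The site at the first HIF1AN start and the site near VHL are shown as 30 bases around the ACGTG match nearest to the median peak centre, whose 5 letters are at chr10:102289546-102289550 and chr3:10157246-10157250 (plus strand).
EGLN1 promoter: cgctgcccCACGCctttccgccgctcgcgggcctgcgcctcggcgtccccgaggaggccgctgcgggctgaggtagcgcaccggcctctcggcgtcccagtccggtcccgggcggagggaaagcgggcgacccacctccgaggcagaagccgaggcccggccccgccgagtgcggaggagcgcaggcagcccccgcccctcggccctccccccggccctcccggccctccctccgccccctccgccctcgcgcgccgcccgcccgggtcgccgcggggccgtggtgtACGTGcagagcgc
EGLN3 intron site: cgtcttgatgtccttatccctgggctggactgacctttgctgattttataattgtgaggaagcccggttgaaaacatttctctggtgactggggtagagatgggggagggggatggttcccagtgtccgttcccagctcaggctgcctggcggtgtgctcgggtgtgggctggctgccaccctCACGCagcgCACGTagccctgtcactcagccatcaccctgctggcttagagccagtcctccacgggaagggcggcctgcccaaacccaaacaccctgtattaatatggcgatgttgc
HIF1AN distal site: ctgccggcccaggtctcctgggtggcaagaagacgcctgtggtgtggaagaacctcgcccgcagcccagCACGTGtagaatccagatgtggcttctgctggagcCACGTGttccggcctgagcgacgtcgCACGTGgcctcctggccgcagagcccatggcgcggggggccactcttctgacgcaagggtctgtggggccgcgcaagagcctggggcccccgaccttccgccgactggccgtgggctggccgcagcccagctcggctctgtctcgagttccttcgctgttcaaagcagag
HIF1AN start site: gcccagcggcatCACGTtccgggatgccct
Site near VHL: acgccggcgaggACGTGacgttgcacaggc

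The ACGTG of EGLN1 lay 11 bp upstream of the start site and inside the stretch that all 15 EGLN1 peaks shared. It was not the match nearest to the median peak centre. A GCGTG 244 bp downstream of the start, in the same stretch, was nearer, 76 bp from that centre. The central 300 bp of the EGLN1 site held this GCGTG and no ACGTG. EGLN3 held an ACGTG and a GCGTG 44 and 35 bp from the median peak centre, both on the strand opposite to the gene. The distal HIF1AN window held 3 copies of CACGTG, which reads ACGTG on both strands and so counts as 6 matches. For comparison, 64.2% of the 11664 merged sites of all libraries held ACGTG or GCGTG in their central 300 bp and 36.1% held ACGTG, and among 300-bp promoters of 19521 protein-coding genes these shares were 56.5% and 23.7%. A match is therefore common in windows of this length and is given as a description. The promoter windows of the other members held 2 matches at EGLN2, 3 at HIF3A, 1 at VHL, 1 at EPAS1 and 0 at EGLN3, HIF1AN and ARNT, and none of these 7 windows was under a peak of any library. The EGLN1 promoter was rich in CpG, with 46 CpG dinucleotides in 300 bp against a median of 21 over all promoters, whereas the EGLN3 intron site held 11 against a median of 17 over all sites.

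The strength of binding at a gene was expressed as the percentile rank of its best-scoring peak within its own list, from 0 for no peak to 100 for the best peak of a library, because the lists held from 275 to 4505 peaks and gave no read totals. A rank is thus relative to the other peaks of the same library, and an absent peak was one that had not reached the peak caller's threshold at an unknown depth. EGLN1 and EGLN3 stood out from the other members by presence alone: EGLN3 had a peak in 16 of 16 libraries and EGLN1 in 15 of 16. Peaks in at least 15 libraries were found for 0.449% of 19821 protein-coding genes (89 genes), and peaks in all 16 for 0.237%. Both genes had a peak in all 8 HIF-1α libraries, as had 1.52% of genes, and EGLN3 also in all 8 HIF-2α libraries, as had 0.288%. HIF1AN had peaks in 4 libraries and VHL in 2, all of HIF-1α. EGLN2, EPAS1, ARNT and HIF3A had no peak within 50 kb in any library, as did 40.4% of all protein-coding genes.

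**Figure D1:**
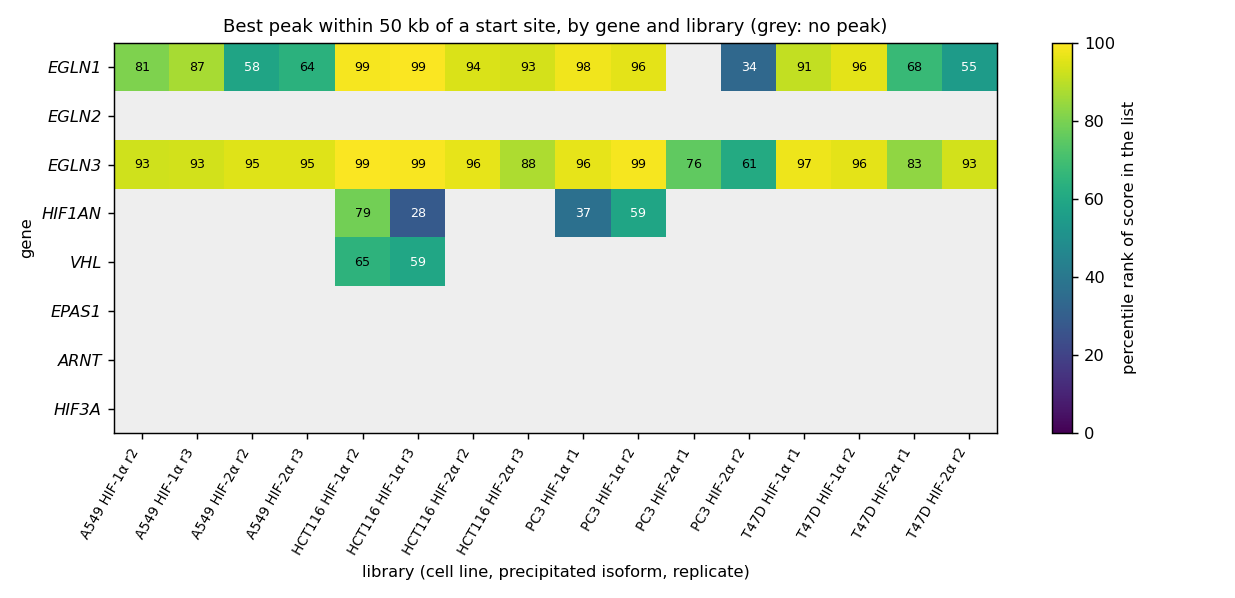
Percentile rank of the best-scoring peak within 50 kb of a start site for each of the 8 genes (vertical axis) in each of the 16 libraries (horizontal axis, with replicate numbers after r); colour and printed number give the rank, and grey marks a library with no peak. EGLN1 and EGLN3 are filled in 15 and 16 libraries, HIF1AN and VHL in HIF-1α libraries of HCT116 or PC3, and the other 4 genes are grey throughout.

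By group, 4 of the 8 members had a peak in both replicates of HIF-1α in HCT116 (EGLN1, EGLN3, HIF1AN and VHL), where 27.7% of all genes did. The count was 3 of 8 for HIF-1α in PC3 (background 12.5%), 2 of 8 for HIF-1α in A549 (2.6%) and 2 of 8 for HIF-1α in T47D (5.19%). For HIF-2α it was 2 of 8 in A549 (4.64%), 2 of 8 in HCT116 (3.82%) and 2 of 8 in T47D (1.31%), in each case EGLN1 and EGLN3. In PC3 the HIF-2α libraries shared a peak at EGLN3 alone, 1 of 8 members (1.2%). The counts at HIF1AN and VHL thus came from the groups with the longest lists, and whether list length alone sets them was not tested.

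EGLN1 (ENSG00000135766, chr1:231499497-231558033, minus strand), which encodes the prolyl hydroxylase PHD2, had a single site at its own start. The merged site spanned chr1:231556378-231558858, its median centre lay 168 bp downstream of the canonical start in exon 1, and no start site of another protein-coding gene lay within 50 kb. In A549 the EGLN1 peak had ranks of 80.8 and 86.8 with HIF-1α (replicates 2 and 3) and 58.2 and 64.0 with HIF-2α. In HCT116 the ranks were 98.7 and 99.5 with HIF-1α and 94.3 and 93.5 with HIF-2α, so that the HIF-1α peak of replicate 3 was the 25th best of 4465. The 2 isoforms were closest together in HCT116.

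In PC3 the HIF-1α libraries placed the EGLN1 peak at ranks of 97.8 and 95.7 (replicates 1 and 2), whereas HIF-2α gave no peak in replicate 1 and a rank of 33.6 in replicate 2, the 856th of 1290 peaks. The library without an EGLN1 peak was also the one with the shortest list, of 275 peaks. In T47D the ranks were 90.7 and 95.9 with HIF-1α and 67.5 and 55.0 with HIF-2α. In each of the 4 lines both HIF-1α libraries were above both HIF-2α libraries, without overlap, which was so for 2.44% of the 8240 genes tested. With the 272 best peaks of every library the isoforms again did not overlap in any line. The differences at EGLN1 were then 71.3 percentile points in A549, against 9.01 in HCT116, 66.9 for PC3 and 41.9 for T47D. In A549 and PC3, however, no HIF-2α peak at EGLN1 was among the 272 best, so both HIF-2α values were 0. The A549 HIF-2α peaks were 578th of 1382 and 381st of 1056, so the cut itself widened the gap there from 22.7 points.

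As group means, EGLN1 stood at 83.8 ± 4.25 (SD, n = 2) with HIF-1α against 61.1 ± 4.08 with HIF-2α in A549 and at 99.1 ± 0.531 against 93.9 ± 0.587 in HCT116. The means were 96.7 ± 1.44 against 16.8 ± 23.8 in PC3 and 93.3 ± 3.71 against 61.2 ± 8.90 in T47D. Over the 4 lines the mean rank was 93.2 with HIF-1α and 58.3 with HIF-2α, a difference of 35.0 percentile points. This gave the smallest p the two-sided exact permutation test allows (p = 0.00154, labels exchanged within cell lines), which 202 genes (2.45%) reached, and an adjusted p of 0.063, which missed the threshold of 0.05. Without the shortest list the difference was 30.8 points. Over all genes tested the median difference was 13.7 points and 86.3% of genes had a difference above 0, so a higher HIF-1α rank was the usual direction in these lists. The exact permutation test called 0 of the 8240 genes after adjustment (0%) and 1198 genes (14.5%) at an unadjusted p under 0.05, of which 1182 were higher with HIF-1α (14.3% of genes tested). Tested by merged site, the EGLN1 site had an adjusted p of 0.0775 by the exact permutation test, 0 of 4722 sites being called (0%) and 471 (9.97%) having an unadjusted p under 0.05.

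EGLN3 (ENSG00000129521, chr14:34393433-34931980, minus strand), which encodes the prolyl hydroxylase PHD3, was bound away from its start. Its single site spanned chr14:34406997-34408525, in intron 1 of the canonical transcript, and the peak centres lay 12483 to 12649 bp downstream of the canonical start at chr14:34420280, with no other protein-coding start within 50 kb. In A549 the EGLN3 peak ranked at 92.9 and 93.3 with HIF-1α and at 95.1 and 95.2 with HIF-2α, both HIF-2α values being the higher. In HCT116 the ranks were 99.4 and 98.9 with HIF-1α and 96.1 and 87.7 with HIF-2α. The HIF-2α lists of A549 were the longer, and by place in the list the EGLN3 peak was 28th of 382 and 43rd of 629 with HIF-1α against 69th of 1382 and 52nd of 1056 with HIF-2α.

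In PC3 the ranks at EGLN3 were 96.3 and 98.5 with HIF-1α and 75.7 and 61.2 with HIF-2α. In T47D they were 97.4 and 96.1 with HIF-1α and 83.4 and 93.2 with HIF-2α. The isoforms did not overlap in any line, and the place of the EGLN3 peak in its list ran from the 21st (T47D, HIF-1α) to the 501st (PC3, HIF-2α). The difference between isoforms was -2.02 percentile points in A549, against 7.25 in HCT116, 28.9 for PC3 and 8.43 for T47D. With the 272 best peaks of every library HIF-1α was higher in A549 too (difference 9.19), and the values were 15.3 (HCT116), 42.5 (PC3) and 9.38 (T47D). In PC3 the HIF-2α peak of replicate 2, the 501st of its list, was not among the 272, so its value was 0. With all peaks the mean over lines was 10.7 points (96.6 with HIF-1α against 85.9 with HIF-2α, 8 libraries each), with p = 0.0139 by the exact permutation test and an adjusted p of 0.17, which missed the threshold of 0.05. Without PC3 it was 4.55 points (exact permutation p = 0.0833).

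**Figure D2:**
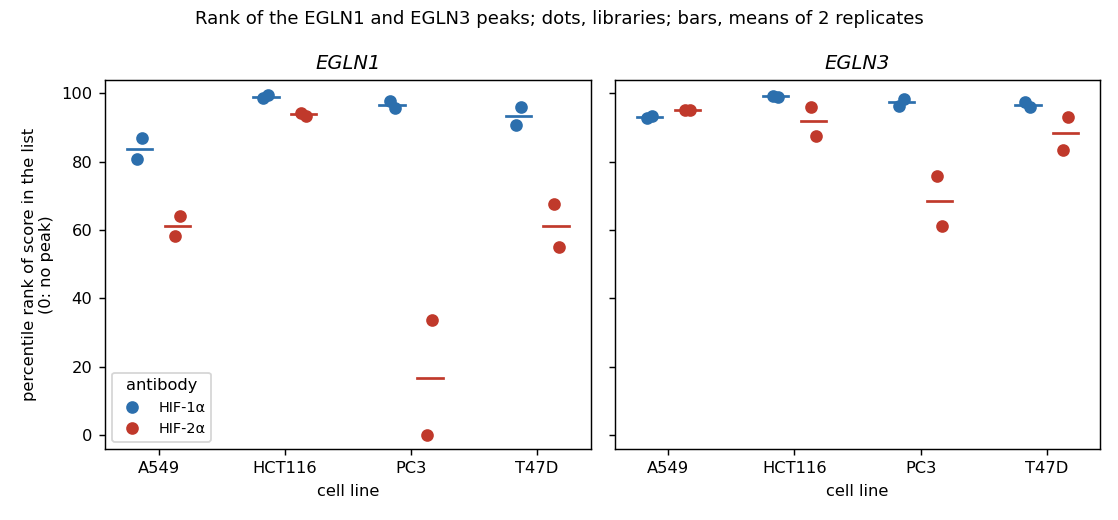
Percentile rank of the EGLN1 peak (left) and the EGLN3 peak (right) in each cell line (horizontal axis); each dot is a library, blue for HIF-1α and red for HIF-2α, and each bar is the mean of 2 replicates. The red dots of EGLN1 lie below the blue in all 4 lines and reach 0 in PC3, whereas those of EGLN3 lie below the blue in 3 lines and above them in A549, where the HIF-2α lists were the longer.

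The site at EGLN3 had the higher rank in 13 of the 16 libraries, 6 of 8 with HIF-1α and 7 of 8 with HIF-2α. The mean gap of EGLN3 over EGLN1 was 3.36 percentile points in HIF-1α libraries and 27.7 in HIF-2α libraries. The difference between isoforms was 24.3 points larger at EGLN1 than at EGLN3 (p = 0.00617, two-sided exact permutation test), a comparison chosen after the values had been seen. It depended on the measure: with the 272 best peaks of every library it was 28.2 points with p = 0.0602, and on the log10 scale of the score it was 0.149 with p = 0.196 (exact permutation tests).

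Between cell lines, the order of EGLN1 with HIF-1α ran from HCT116 through PC3 and T47D to A549. PC3 and T47D overlapped, while HCT116 lay above PC3 and A549 lay below T47D without overlap. With HIF-2α the order was HCT116, then T47D and A549 with overlapping ranks, then PC3. The exact permutation test of the spread over lines gave p = 0.019 for HIF-1α (adjusted p = 0.228) and p = 0.0286 for HIF-2α (adjusted p = 1), neither past the threshold. The order with HIF-1α was also the order of mean list length, and with the 272 best peaks of every library the test gave p = 0.667 for HIF-1α and p = 0.0286 for HIF-2α (adjusted p = 1 and 0.348, exact permutation). Among all genes, 0 of 8240 (0%) were called for either isoform, with 14.2% (HIF-1α) and 1.54% (HIF-2α) at an unadjusted p under 0.05. The smallest p this exact permutation test of 8 libraries can give is 0.00952. Only with many genes at that floor could any pass adjustment, so the 0 called do not show that the lines were alike.

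EGLN3 with HIF-1α followed the order HCT116, PC3, T47D and A549, with PC3 and T47D again overlapping. With HIF-2α, A549 headed the order and overlapped HCT116, which overlapped T47D, and PC3 was the lowest and apart from the rest. The exact permutation tests gave p = 0.0381 for HIF-1α (adjusted p = 0.256) and p = 0.0571 for HIF-2α (adjusted p = 1). With the 272 best peaks they gave p = 0.124 and p = 0.514 (exact permutation), and by place the A549 HIF-1α peaks (28th and 43rd) came before those of PC3 (57th and 52nd), so the order of the lines at EGLN3 changed with the number of peaks ranked.

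The extent of the EGLN1 and EGLN3 peaks was compared after the ranks had been seen, among the 66 merged sites with a peak in all 8 groups. At EGLN1 the HIF-1α peaks were 1643 to 2481 bp wide (mean 1976 ± 282 bp, SD, n = 8) and the HIF-2α peaks 894 to 1415 bp wide (mean 1189 ± 191 bp, n = 7), with no overlap between isoforms. The difference was 777 bp (exact permutation p = 0.00154 over 648 relabellings, adjusted p = 0.0509). At EGLN3 the widths were 764 to 1457 bp with HIF-1α and 644 to 1257 bp with HIF-2α, a difference of 358 bp (exact permutation p = 0.0123, adjusted p = 0.062). HIF-1α peaks were wider at 97% of the 66 sites, with a median difference of 368 bp, and 0 sites (0%) were called by the exact permutation test after adjustment. The EGLN3 difference was thus near the median of these sites and that of EGLN1 above it.

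The mean centre of the EGLN1 peaks also differed between isoforms, though the ranges over all lines overlapped and the difference missed the adjusted threshold. HIF-1α centres lay 105 to 485 bp downstream of the start and HIF-2α centres from 23 bp upstream to 168 bp downstream, a mean difference of 236 bp towards the gene body (exact permutation p = 0.00154, adjusted p = 0.102). The upstream ends of the EGLN1 peaks lay closer together than their downstream ends, where the HIF-1α peaks reached further into the gene. At EGLN3 the centres of the isoforms differed by -7.38 bp (exact permutation p = 0.796, adjusted p = 0.888), with a median of 9.25 bp over the 66 sites, 54.5% of which had the HIF-1α centre on the more downstream side. Whether the wider HIF-1α peaks go with their higher scores was not tested.

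**Figure D3:**
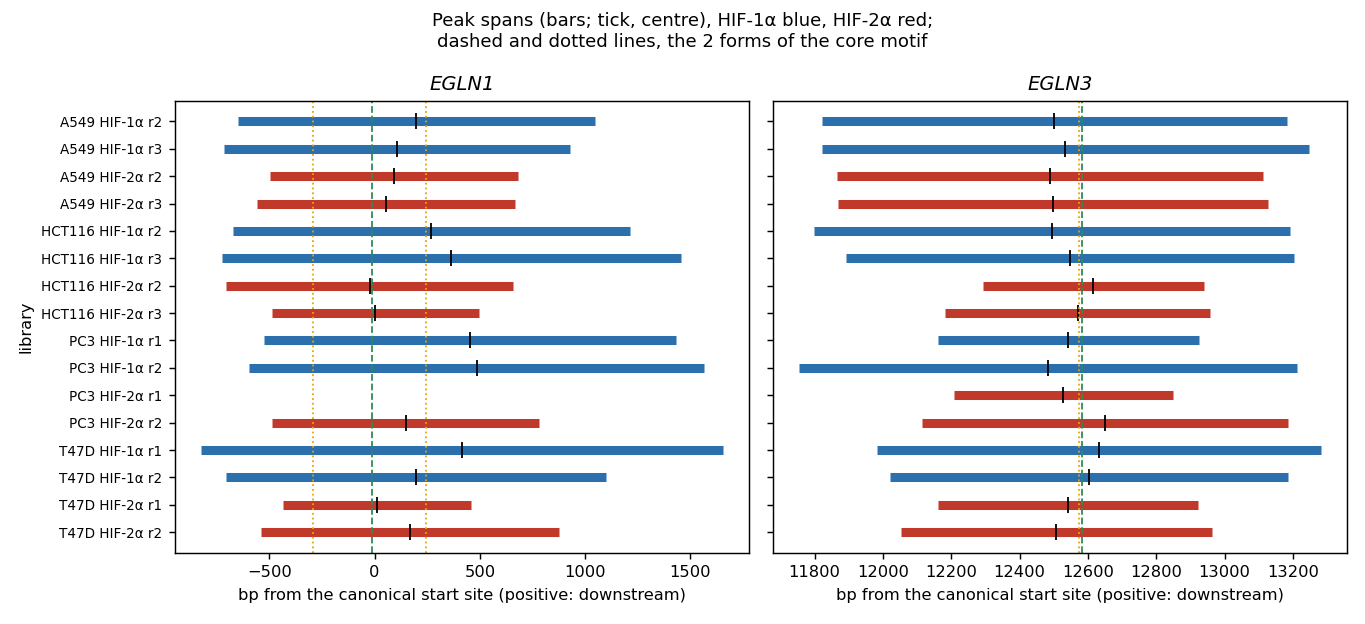
Span of the EGLN1 peak (left) and the EGLN3 peak (right) in each library (vertical axis) in bp from the canonical start site (horizontal axis, positive downstream); bars are peaks, blue for HIF-1α and red for HIF-2α, black ticks are centres, and dashed and dotted lines mark ACGTG and GCGTG. At EGLN1 the HIF-1α bars reach further downstream with centres at 105 to 485 bp, whereas at EGLN3 the centres of both isoforms lie together.

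HIF1AN (ENSG00000166135, chr10:102288829-102319755, plus strand), the asparaginyl hydroxylase gene, had 2 sites, both with HIF-1α peaks alone. The site at its first start (chr10:102288464-102290587) had a peak in HCT116 replicate 2 (rank 78.9) and in both PC3 replicates (ranks 36.8 and 58.8). Its median centre lay 697 bp downstream of that start but 95 bp from a start of NDUFB8, a respiratory chain subunit gene, which is the nearer gene. The canonical HIF1AN start at chr10:102295700 lay outside the site. The distal site (chr10:102321312-102323191) lay 26464 bp downstream of the canonical start and beyond the end of the gene, with HIF1AN as its nearest gene, and had a peak in both HCT116 replicates (ranks 29.9 and 28.3). The HCT116 peaks therefore ranked well below those of EGLN1 and EGLN3. The HIF-1α mean over lines was 25.4 and the HIF-2α mean 0 (exact permutation p = 0.0556, adjusted p = 0.244).

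VHL (ENSG00000134086, chr3:10183462-10195351, plus strand), which encodes the substrate-binding part of the ubiquitin ligase, had no peak at its own start. The site assigned to it by the window (chr3:10156580-10157958) lay 26181 bp upstream and 78 bp from a start of BRK1, a gene of the actin-regulating WAVE complex, and FANCD2OS and IRAK2 also had starts within 50 kb. It had peaks in both HCT116 HIF-1α libraries (ranks 64.8 and 59.0) and in no other library. The difference between isoforms was 15.5 percentile points with an adjusted p of 0.476 (exact permutation p = 0.333, the smallest value a gene with peaks in both libraries of a single group can reach). The VHL window thus held a peak at the start of another gene rather than at VHL.

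The remaining hydroxylase and the HIF subunits had no peak in the window, and their nearest peaks differed in distance. EGLN2 (ENSG00000269858, chr19:41304901-41314339), the gene of the prolyl hydroxylase PHD1, had its nearest peak 108639 bp upstream, in HCT116 with HIF-1α (replicate 2). ARNT (ENSG00000143437, chr1:150782189-150849184), the common partner of the α subunits, had its nearest peak 171176 bp upstream, in PC3 with HIF-1α (replicate 2). HIF3A (ENSG00000124440, chr19:46800299-46846690) had a peak just outside the window, at 51602 bp downstream, in HCT116 with HIF-1α (replicate 2, rank 25.2), and PPP5C was nearer to that peak. All 3 of these nearest peaks were in HIF-1α libraries with long lists.

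EPAS1 (ENSG00000116016, chr2:46520806-46613836), the gene of HIF-2α itself, differed from these in the isoform of its nearest peak. That peak lay 63497 bp upstream of the nearest protein-coding EPAS1 start in A549 HIF-2α replicate 2 (rank 74.4) and 63522 bp upstream in replicate 3 (rank 84.7). EPAS1 was the nearest protein-coding gene. It was present in both A549 HIF-2α libraries and in no other library, and lying outside the window it was not tested.

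**Figure D4:**
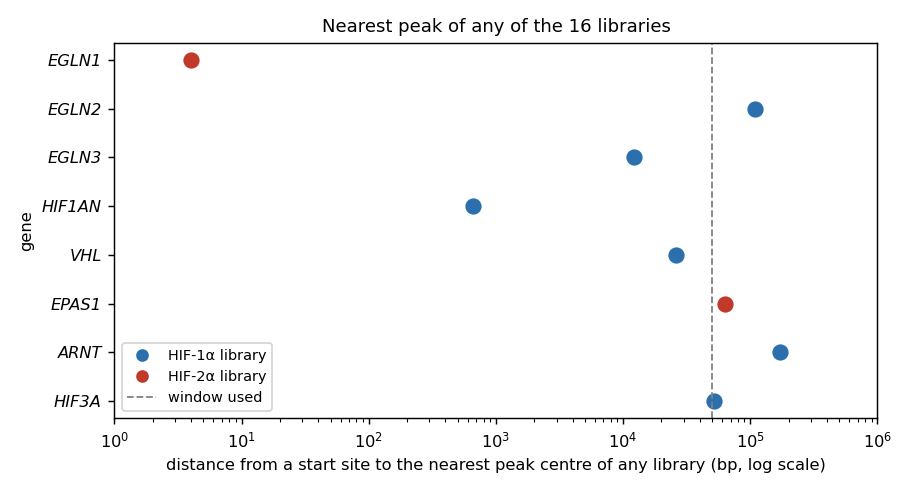
Distance in bp (log scale, horizontal axis) from a start site of each gene (vertical axis) to the nearest peak centre in any of the 16 libraries; blue, the peak was in a HIF-1α library; red, in a HIF-2α library; dashed line, the 50-kb window. EGLN1 has the nearest peak at 4 bp and ARNT the farthest at 171176 bp, and HIF3A lies just outside the line at 51602 bp.

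For the wider pathway, 20 further genes were listed: partners, ligase subunits, coactivators and regulators of HIF stability. Of these, 10 had a peak in both replicates of a HIF-1α group, 2 in both replicates of a HIF-2α group and 4 had no peak within 50 kb in any library (40.4% of all genes), among them HIF1A. All 10 were found in HIF-1α libraries of HCT116, where 27.7% of all genes had a peak in both replicates. With HIF-2α, CITED2 and SIAH2 had one in both replicates in A549 (4.64% of all genes) and in T47D (1.31%). SIAH2 alone did so in HCT116 (3.82%). Of the 12 that could be tested, 0 were called by the exact permutation test after adjustment (0% of all genes) and 2 had an unadjusted p under 0.05 (background 14.5%), with a median difference of 24.7 percentile points against 13.7 over all genes. The 2 were ELOB (difference 30.02, adjusted p = 0.204) and RACK1 (difference 60.1, adjusted p = 0.0919 by the exact permutation test), and every peak in their windows was nearer to another gene (SRRM2 for ELOB, and TRIM52, TRIM7 or TRIM41 for RACK1).

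Genes with peaks at their own start included SIAH2, CITED2 and RBX1. SIAH2, a ubiquitin ligase that degrades prolyl hydroxylases, had peaks within 124 bp of its start in 13 libraries, with ranks of 98.2 and 99.0 (HIF-1α) and 93.8 and 92.3 (HIF-2α) in HCT116 and no peak in either PC3 HIF-2α library. CITED2, which competes with HIF-α for coactivators, had peaks 41 to 1097 bp upstream of its start in 11 libraries. RBX1, the RING subunit of the VHL ligase, had HIF-1α peaks 204 to 338 bp upstream in HCT116 (ranks 94.3 and 91.9) and in PC3 replicate 2 (rank 81.1). The differences between isoforms were 24.6 for SIAH2 (adjusted p = 0.362), 19.2 for CITED2 (adjusted p = 0.476) and 33.4 for RBX1 (adjusted p = 0.362), by the exact permutation test. SIAH2 and CITED2, like EGLN1 and EGLN3, had peaks with both isoforms.

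Of the other pathway genes with peaks in both replicates of a group, HSP90AB1, a chaperone gene, had HIF-1α peaks 71 to 175 bp downstream of its start in both HCT116 and both PC3 libraries. In HCT116 these ranked at 72.1 and 56.9, below peaks in the window beside SLC29A1 (81.0, replicate 2) and SLC35B2 (69.4, replicate 3). In PC3 the best peak was at its start in replicate 1 and 8542 bp upstream in replicate 2 (rank 90.4). HSP90AA1 had HIF-1α peaks in both HCT116 libraries, with ranks of 24.3 and 6.88, but at different positions, 436 bp upstream and 3999 bp downstream of a start. The best peaks in the windows of CREBBP (coactivator, ranks 57.4 and 56.7 in HCT116) and P4HTM (a transmembrane prolyl hydroxylase, ranks 81.1 and 54.7) were nearer to TRAP1 and NDUFAF3, respectively. OS9, reported to bind HIF-α and prolyl hydroxylases, had its best HCT116 peaks (ranks 77.9 and 62.0) beside CDK4. In the HSP90AB1, CREBBP, P4HTM and OS9 windows the best HCT116 peaks thus lay at the start of a different gene.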

How the data were processed

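ChIP-seq peak lists of 16 libraries were used, in 8 groups by the labelled cell line and antibody. Per the study's methods, the authors trimmed reads (Trim Galore 0.3.3), aligned them to GRCh37 with BWA 0.7.5a-r405, removed reads with mapping quality under 15, blacklisted regions and duplicates, and called peaks per library with MACS in control mode. The MACS version and control library are not given in the sources used here. Each peak carries a score, deposited by the authors with no stated scale. Its lowest value was 50 to 50.15 in each list. It was used for ranks within a library. The study also called peaks with T-PIC. It kept peaks found by both callers, above a background cut and overlapping between replicates. These later filters had not been applied to these lists. Read depth is unknown, and the number of peaks limits the precision.

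Start sites came from GENCODE release 44 on GRCh37; 29 peaks on other contigs were left out. Peaks were merged on 1 bp of overlap. Isoforms were compared by exact permutation within cell lines and lines by exact permutation of 8 libraries (2520 assignments), over all genes with a peak in at least 2 libraries, with Benjamini-Hochberg adjustment and a threshold of 0.05. All 8 members were named, with pathway genes that had a peak in both replicates of a group. Members, lists and tests were chosen with earlier results of these data known. The labels do not say that replicates were separate cultures, so p-values measure the spread between these libraries. Windows, scores, start sites, single libraries and cell lines were varied. Scripts ran in Python 3.11.15 (matplotlib 3.10.9, pysam 0.24.0, scipy 1.17.1, numpy 2.4.6), and the tests were checked on simulated data.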

Additional observations from a re-analysis of the deposited data

Results flagged for a closer look

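The direction of the difference between isoforms varied with the cell line at EGLN3 and CITED2 in ranks over all peaks, and this variation between lines was not tested. At EGLN3 the HIF-1α rank minus the HIF-2α rank was -2.02 percentile points in A549 against 7.25 in HCT116, 28.9 for PC3 and 8.43 for T47D. With the 272 best peaks of every library the A549 value was 9.19, in the same direction as the other lines. At CITED2 the difference was -37.4 in A549 and -14.1 in T47D against 89.99 in HCT116, where neither HIF-2α library had a peak. PC3 had a CITED2 peak in a single HIF-1α library (difference 38.2). With the 272 best peaks CITED2 had no peak in HCT116 or PC3, and the differences were -17.6 in A549, where the replicates of the isoforms overlapped, and -51.7 in T47D.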

How the results depend on the processing

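Counts of members with a replicated peak depended on the window: at 1 kb and at 10 kb they were 1 in both A549, both HCT116 and both T47D groups and 0 for HIF-2α in PC3. With the outermost start alone they were 1 in both A549, both T47D and the HCT116 HIF-2α groups and 0 for HIF-2α in PC3. Scores at or above the median (74.57) gave 0 (PC3 HIF-2α) and 1 (T47D HIF-2α). The 272 best peaks gave 1 (A549 HIF-2α), 2 (HCT116 HIF-1α and PC3 HIF-1α) and 0 (PC3 HIF-2α). A peak in either replicate gave 2 (PC3 HIF-2α, 1 to 2 when a library was left out). Genes called for a difference between isoforms rose from 0 to 189 with the 272 best peaks, to 415 with a peak in at least 4 libraries and to 305 without A549 HIF-1α replicate 2 (range 0 to 305 over libraries left out); sites rose to 84 and 155 under the former 2. EGLN1 then passed by the exact permutation test, with adjusted p of 0.023, 0.0289 and 0.0416, and EGLN3 with the 272 best peaks (0.0352, difference 19.1). Presence alone could not separate the isoforms at these genes, with peaks in 15 and 16 of the 16 libraries. Its p = 1 at both (exact permutation test) therefore says nothing about the strength of binding. EGLN3 had differences of 32.9 with scores at or above the median, 4.55 without PC3 and 1.09 with the outermost start (exact permutation p = 1). The outermost EGLN3 start is at chr14:34931980, and the intron site lies outside its window, so that setting did not measure the site. The A549 difference at EGLN3 turned from -2.02 to 9.19 with the 272 best peaks. Over all alternatives but presence alone the EGLN1 adjusted p per gene ran from 0.023 to 0.299, the latter with a replicate block (exact permutation tests). The labels do not say whether equal replicate numbers pair the samples, and the low correlations of deviations (-0.0269 to 0.0634) cannot settle it. With a replicate block 0 genes were called. EGLN1 then had p = 0.00781 (adjusted p = 0.299) and EGLN3 p = 0.0469 (adjusted p = 0.425) by the exact test. In exact tests the EGLN1 against EGLN3 difference had p = 0.0602 with the 272 best peaks (28.2 points) and p = 0.196 on the log10 score (0.149), and 18.3 to 30.3 points over libraries left out. The uncalled EGLN3 centre difference turned to 0.125 and 7.75 bp without PC3 HIF-1α or HIF-2α replicate 2 (range -22.5 to 7.75 bp over libraries left out) and to 13.8 and 15.3 bp without HCT116 or PC3. The causes were not tested.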

Other observations

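Peaks between 50 and 100 kb of a start belonged to no comparison. EGLN3 had 6, of which those about 84.7 kb upstream of a start were in A549 HIF-1α replicate 3, both A549 HIF-2α libraries and HCT116 HIF-1α replicate 3 (ranks 27.7, 41.1, 47.5 and 2.33). HIF3A had 8 in 7 libraries, all but 1 of them nearest to IGFL1. HIF1A, which encodes HIF-1α, had a peak 53580 to 53761 bp downstream of its start in all 16 libraries, nearest to SNAPC1 and at ranks of 96.6 to 99.9.

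The genes over 1 Mb away whose ranks were most like those of EGLN1 over the 16 libraries were ELAVL3, ZNF653 and ALYREF (Spearman's rho 0.953, 0.953 and 0.946 among 8236 genes), and for EGLN3 they were TENM2, MYLK4 and WRNIP1 (0.935, 0.914 and 0.914 among 8234). For EGLN1 10 genes had a rho at or above that of ALYREF, which was thus named from a tie. For HIF1AN 16 genes and for VHL 483 genes were tied at a rho of 1. These libraries share their list lengths, which bear on every gene.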
